A study of Mus musculus with 8 samples.

Results

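The 10 genes described here encode proteins of arginine and polyamine metabolism, and they were taken by symbol from the 23413 genes of the deposited count table. All 10 were found. They are the arginine carrier Slc7a2, the arginine-making enzyme Ass1, the inducible nitric oxide synthase Nos2, the arginases Arg1 and Arg2, the polyamine enzymes Odc1, Srm, Sms and Sat1, and the antizyme Oaz1. They were measured by RNA-seq in tumor-associated macrophages (TAMs) of 8 mice, 1 library per mouse. The mice were male, of strain B6, 8 to 10 weeks old, and carried a subcutaneous tumor of B16F10, a mouse melanoma line. They received the vehicle DMSO (2 mice), thiostrepton by intraperitoneal injection (I.P., 4 mice) or thiostrepton injected subcutaneously beside the tumor (S.C., 2 mice; the labels of these libraries read IS). Thiostrepton is a thiopeptide antibiotic, studied here for its action on macrophages in tumors. Doses were given on days 6 and 12, and TAMs were sorted on day 18 by the surface phenotype CD45+F4/80+CD11b+Gr-1-. S.C. mice received 20 mg/kg. The study used a pair of I.P. doses, both higher per body weight than the S.C. dose, and which of them the sequenced I.P. mice received is not given in the sources used here, nor is the injection route of the controls. Route and dose cannot be told apart.

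Arginine is a branch point in macrophages. Nitric oxide synthase turns it into nitric oxide and citrulline, a route known from macrophages activated by interferon-γ or bacterial products, while arginase turns it into ornithine and urea, a route known from macrophages activated by IL-4 and from TAMs. Ornithine is decarboxylated to putrescine by Odc1, from which Srm and Sms build spermidine and spermine. Sat1 acetylates these polyamines for export or breakdown, and Oaz1 binds Odc1 and sends it to the proteasome.

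The libraries held between 14127506 and 17577466 counts, so that 3 counts, taken as the lower limit of detection, stood for 0.169 to 0.218 CPM (counts scaled to the size of the library). All 12 macrophage markers examined were present, among them Cd68 at 2376 to 3396 CPM. Their summed level was 19495 and 24979 CPM in the DMSO mice, 28608 to 34191 CPM in 5 of the 6 treated mice and 58301 CPM in I.P. mouse 1, in which Apoe alone reached 38151 CPM. Markers of melanoma cells summed to 461 to 1671 CPM in 7 libraries and to 2986 CPM in S.C. mouse 1. Neutrophil markers summed to 133 to 193 CPM in the DMSO and I.P. mice, and to 294 and 526 CPM in the S.C. mice. The 2 S.C. sums differed in make-up. In S.C. mouse 1 the largest parts were Cxcr2 (171 CPM) and Mmp8 (62.8 CPM), with S100a8 at 6.46 and Ngp at 4.44 CPM. In S.C. mouse 2 S100a8 was at 64.7 and Ngp at 60.3 CPM. Outside the S.C. mice S100a8 was at 1.63 to 21.2 and Ngp at 0 to 2.17 CPM. Lymphocyte markers summed to 3.25 to 25.2 CPM outside the S.C. mice and to 56.97 and 39.97 CPM within them. Stromal markers did not exceed 9.39 CPM in any library, with Pdgfra at 0 in all 8, and dendritic cell markers stayed at or below 13.99 CPM, with Flt3 at or below 3 counts in each. The part of these differences in the results that follow was not tested, and in bulk RNA fewer cells of a type and less RNA per cell cannot be told apart.

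None of the 10 genes met the criterion of the study for differential expression, an unadjusted P below 0.05 with at least a 2-fold difference, in any of the 3 comparisons. Across all genes tested by edgeR's quasi-likelihood test, 2.0% met it for I.P. against DMSO, 5.06% for S.C. against DMSO and 7.05% for S.C. against I.P. After Benjamini-Hochberg adjustment over all genes in edgeR, no gene of the table passed an adjusted P of 0.05 in the quasi-likelihood test of any comparison, while 418, 632 and 1049 genes had an unadjusted P below 0.05. Other tests of the same counts passed more genes at that adjusted P: 10, 179 and 265 in edgeR's likelihood ratio test and 19, 107 and 234 in DESeq2. Among the 10 genes, 1 had such a P in I.P. against DMSO (Sat1), 0 in S.C. against DMSO and 1 in S.C. against I.P. (Odc1). Both of these tests also called 0 of the 10 in each comparison. Every thiostrepton mouse had a higher Sat1 level than both DMSO mice, the arginase gene Arg1 did not exceed the higher DMSO mouse in any treated mouse, and Odc1 was highest in the 2 S.C. mice.

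As a group, the 10 genes had a median log2 fold change of -0.01 for I.P. against DMSO, 0.43 for S.C. against DMSO and 0.30 for S.C. against I.P., beside 0.02 over all genes tested in each comparison. The values of the groups did not overlap for 2 of the 10 genes in I.P. against DMSO (Sat1 higher, Srm lower), where 14.1% of all genes did not overlap in either direction. For S.C. against DMSO this held for 3 of 10 (Sat1, Odc1 and Arg2, all higher) against a background of 34.3%, and for S.C. against I.P. for 1 of 10 (Odc1, higher) against 18.5%. These counts were near what the background shares give for 10 genes, and nothing particular to the group is read from them.

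**Figure D1:**
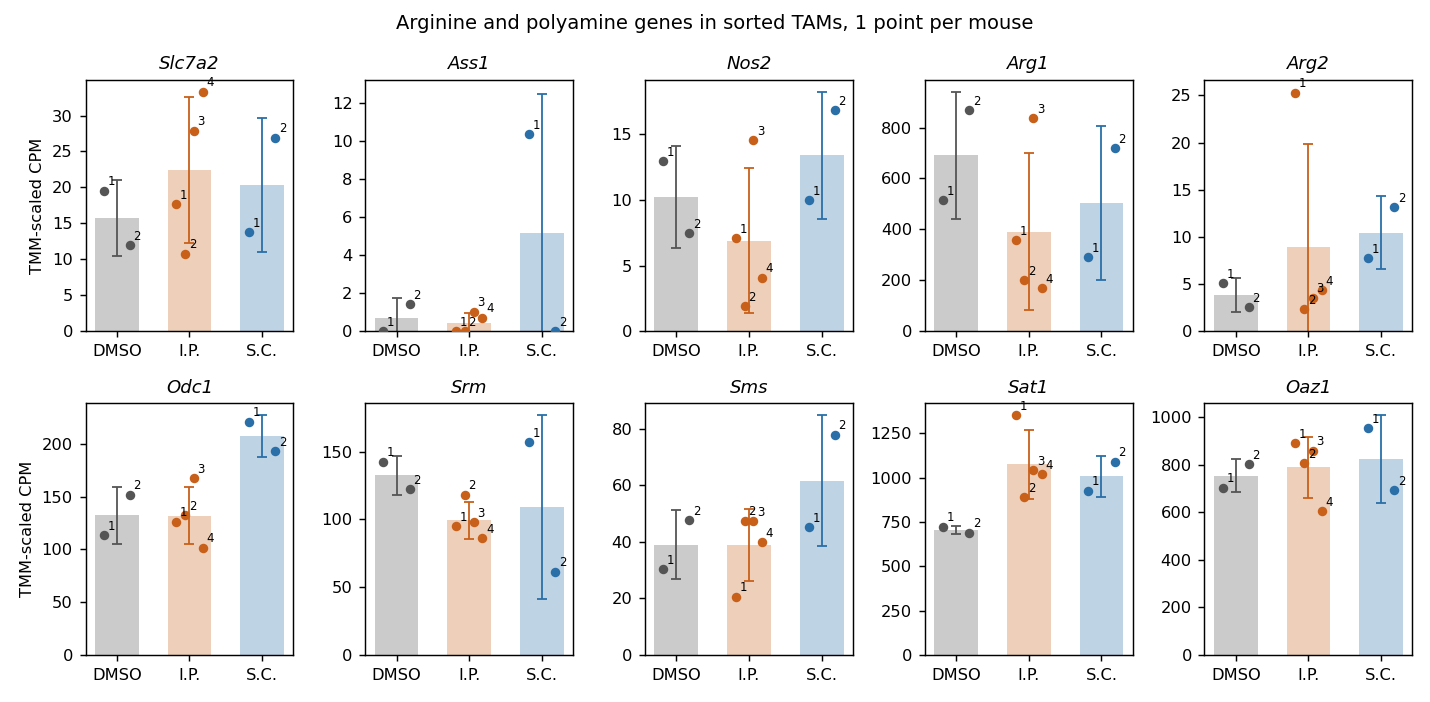
Level of each gene (y axis, TMM-scaled CPM on a linear scale that starts at 0 and differs between panels) in the DMSO, I.P. and S.C. mice (x axis). Points are mice with their replicate number, bars are group means and error bars the SD (n = 2, 4 and 2). Sat1 lies above both DMSO mice in all 6 treated mice, Arg1 spans 168 to 836 CPM within the I.P. group, and Arg2 stands at 25.3 CPM in I.P. mouse 1 alone.

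The highest levels per length among the 10 genes belonged to Sat1, Oaz1 and Arg1. Expressed per kilobase of merged exon as a mean over the 8 mice, Sat1 stood at 348 CPM per kb, Oaz1 at 309 and Arg1 at 222. The synthesis enzymes followed, with Srm at 68.8, Odc1 at 44.3 and Sms at 7.41 CPM per kb. Arg2 (5.61), Slc7a2 (2.21), Nos2 (2.12) and Ass1 (0.70) were the lowest on this scale. On this scale of level per length, Arg1, the cytosolic arginase, stood far above Arg2, the mitochondrial one, and above Nos2.

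Sat1, which acetylates spermidine and spermine, lies on chromosome X (chrX:155213132-155216449, minus strand, GRCm38). It measured 722 and 689 CPM in the DMSO mice, 1350, 889, 1042 and 1017 CPM in I.P. mice 1 to 4, and 926 and 1089 CPM in the S.C. mice. The treated mice thus all lay above the DMSO mice, which differed from each other by only 1.05-fold. The log2 fold change was 0.60 ± 0.24 (SE, adjusted P = 0.980, edgeR) for I.P. against DMSO, a 1.52-fold higher level. Its unadjusted P was below 0.05, but the difference is below the 2-fold limit. For S.C. against DMSO it was 0.49 ± 0.29 (adjusted P = 0.9999, edgeR). The S.C. and I.P. mice differed by -0.09 ± 0.25 (adjusted P = 0.960, edgeR). Across the alternatives tried, leaving out each mouse included, the log2 fold change stayed between 0.48 and 0.69 for I.P. and between 0.33 and 0.60 for S.C. against DMSO. The unadjusted P of Sat1 for I.P. did not stay below 0.05 in all of them. It was 0.0606 without I.P. mouse 3, 0.102 with I.P. mice 1 and 2 alone and 0.172 with the replicate block (edgeR quasi-likelihood test). Nor did it stay below 0.05 without either DMSO mouse. Those fits rested on 1 control, with log2 fold changes of 0.64 without DMSO mouse 1 and 0.57 without DMSO mouse 2. The macrophage marker sum was also higher in all 6 treated mice than in both DMSO mice, and I.P. mouse 1 had the highest Sat1 and the highest sum. Apoe was the largest part of the sum, at 9499 and 6641 CPM with DMSO and 13571 to 38151 CPM in the treated mice. Of the markers, Apoe and Cd68 were higher in all 6 treated mices' libraries than in both DMSO libraries. Mrc1 was lower in all 6 (271 to 549 CPM, against 616 and 902 CPM with DMSO), and the other markers overlapped. The part of these marker differences in the Sat1 result was not tested.

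Odc1, the ornithine decarboxylase that opens polyamine synthesis (chr12:17544794-17551505, plus strand), measured 113 and 152 CPM in the DMSO mice, 126, 132, 168 and 102 CPM in the I.P. mice, and 221 and 193 CPM in the S.C. mice. Both S.C. mice stood above all 6 others, whereas the I.P. and DMSO mice were interleaved. The log2 fold change was 0.65 ± 0.27 for S.C. against I.P. (adjusted P = 0.552, edgeR), a 1.57-fold difference, and 0.62 ± 0.32 for S.C. against DMSO (adjusted P = 0.9999, edgeR). For I.P. against DMSO it was -0.01 ± 0.26. The S.C. difference was between 0.41 and 0.83 against DMSO and between 0.54 and 0.76 against I.P. under all alternatives. The unadjusted P of Odc1 for S.C. against I.P. did not stay below 0.05 in all of them. S.C. mouse 1, with the highest Odc1, also had the highest melanoma marker sum, and S.C. mouse 2 had a melanoma sum of 700 CPM and the highest neutrophil sum, 526 CPM. The part of these markers in the Odc1 result was not tested.

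The bases just before the transcription start are shown for Sat1 and Odc1, whose levels did not overlap between groups and which had a RefSeq promoter entry. They were read from RefSeq (GRCm38.p6), on the strand of the gene, 5′ to 3′, and cover chrX:155216450-155216699 (minus strand, 250 bases) for Sat1 and chr12:17544623-17544793 (plus strand, 171 bases) for Odc1. Capitals mark the GC box GGGCGG or its reverse complement.
Sat1: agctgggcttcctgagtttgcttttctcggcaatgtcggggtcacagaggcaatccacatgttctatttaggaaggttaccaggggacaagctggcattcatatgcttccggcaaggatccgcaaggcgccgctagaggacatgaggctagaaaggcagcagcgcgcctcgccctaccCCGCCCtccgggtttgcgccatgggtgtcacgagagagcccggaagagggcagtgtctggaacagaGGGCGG
Odc1: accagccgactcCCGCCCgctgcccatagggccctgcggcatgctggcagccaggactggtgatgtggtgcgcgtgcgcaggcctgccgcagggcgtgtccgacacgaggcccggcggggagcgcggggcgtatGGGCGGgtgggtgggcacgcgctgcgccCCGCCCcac
The Sat1 window held 2 matches to the GC box, and 32.7% of 32851 promoters hold at least 1 within the same 250 bases. The Odc1 window held 3, and 19.6% of promoters hold at least 1 in a stretch of 171 bases. That stretch is the first 171 of the 250 bases before each RefSeq start, so it leaves out the bases nearest that start. The Odc1 window is the same stretch, cut where GENCODE starts the gene. The E-box CACGTG and the AP-1 motif TGACTCA, searched on both strands, had 0 matches in either window, against 6.02% and 4.46% of promoters for the longer window. Ass1, Sms and Oaz1 also had a RefSeq promoter entry. Srm and Arg2, whose levels also did not overlap between groups in a comparison, had none.

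Srm, the spermidine synthase (chr4:148591503-148594993, plus strand), measured 143 and 122 CPM in the DMSO mice and 94.8, 118, 97.7 and 85.9 CPM in the I.P. mice. All 4 I.P. mice were below both DMSO mice, by a log2 fold change of -0.42 ± 0.22 (adjusted P = 0.980, edgeR), which did not pass the test. The S.C. mice lay at the 2 ends of the series, at 157 and 61.3 CPM, and the difference from DMSO was -0.31 ± 0.49. Without S.C. mouse 1, the log2 fold change of Srm against DMSO was -1.14 and met the criterion. That fit rested on 1 S.C. mouse, and 24.5% of all genes met the criterion in it.

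Sms, the spermine synthase (chrX:157443855-157492287, minus strand), measured 30.3 and 47.5 CPM in the DMSO mice, 20.5, 47.5, 47.3 and 39.9 CPM in the I.P. mice, and 45.1 and 77.9 CPM in the S.C. mice. The groups overlapped in every comparison, with log2 fold changes of -0.01 ± 0.38 for I.P. and 0.64 ± 0.44 for S.C. against DMSO. Oaz1, the antizyme (chr10:80826656-80829290, plus strand), had the smallest ratio of the highest to the lowest mouse among the 10, at 704 and 802 CPM with DMSO, 605 to 891 CPM with I.P. and 954 and 693 CPM with S.C. thiostrepton. Its log2 fold changes were 0.06 ± 0.24, 0.10 ± 0.31 and 0.06 ± 0.26 in the 3 comparisons, and each turned slightly negative when libraries were scaled by their total count alone (-0.01, -0.05 and -0.04). The near-identical copy Oaz1-ps was listed at 10 to 2784 counts, beside 9525 to 15224 for Oaz1, so reads of the pair could be assigned to either. With the 2 rows summed, the log2 fold changes were 0.13, 0.25 and 0.14, and none met the criterion.

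Arg1, the arginase of alternatively activated macrophages (chr10:24915221-24927484, minus strand), measured 514 and 868 CPM in the DMSO mice, 357, 199, 836 and 168 CPM in the I.P. mice, and 291 and 718 CPM in the S.C. mice. Of the treated mice, 3 of 4 I.P. and 1 of 2 S.C. mice lay below both DMSO mice and none lay above both. The spread within the I.P. group was 4.97-fold from the lowest to the highest mouse. The log2 fold change was -0.83 ± 0.59 for I.P. (adjusted P = 0.980, edgeR), -0.48 ± 0.53 for S.C. against DMSO (adjusted P = 0.9999, edgeR) and 0.37 ± 0.65 for S.C. against I.P. I.P. mouse 3 decided the first of these. Without it the log2 fold change was -1.53 and met the criterion, as did 2.996% of all genes in that fit. Arg1 also met it in the fit of I.P. mice 1 and 2 alone, at -1.33. Without S.C. mouse 2, Arg1 met the criterion in S.C. against DMSO, at -1.31, again with 1 S.C. mouse left and with 27.8% of all genes meeting it. Monocyte markers summed to 73.8 and 117 CPM in the DMSO mice. The sum was 48.4 CPM in I.P. mouse 3 and 20.9 to 325 CPM in the other I.P. mice. Much of the I.P. range came from 1 marker, Chi3l3, at 290, 10.5, 21.3 and 106 CPM in I.P. mice 1 to 4. Ccr2 was lower in every I.P. mouse (12.7, 7.30, 13.1 and 20.1 CPM) than in both DMSO mice (59.9 and 79.2 CPM). In the S.C. mice Ccr2 was at 60.7 and 76.7 CPM. The other monocyte markers overlapped between I.P. and DMSO mice. The part of monocytes in the Arg1 result was not tested.

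Arg2, the mitochondrial arginase (chr12:79130777-79156301, plus strand), was read at 38 to 397 counts per library. It measured 5.09 and 2.53 CPM in the DMSO mice, 25.3, 2.31, 3.56 and 4.38 CPM in the I.P. mice, and 7.74 and 13.2 CPM in the S.C. mice. I.P. mouse 1 held the highest value of the series, and the other 3 I.P. mice were within or below the DMSO range. The log2 fold change of 1.21 ± 0.97 for I.P. against DMSO (adjusted P = 0.980, edgeR) became -0.15 without that mouse. Both S.C. mice were above both DMSO mice, by 1.43 ± 0.74 (adjusted P = 0.9999, edgeR), and without S.C. mouse 1 the log2 fold change of 1.77 met the criterion on the 1 S.C. mouse left, in the fit where 24.5% of all genes did. Against I.P. the S.C. mice differed by 0.24 ± 0.94, and without I.P. mouse 1 by 1.61, which met the criterion (7.69% of all genes in that fit).

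Nos2, the inducible nitric oxide synthase (chr11:78920787-78960254, plus strand), was low throughout, at 31 to 258 counts per library. It measured 13.0 and 7.46 CPM in the DMSO mice, 7.07, 1.89, 14.6 and 4.08 CPM in the I.P. mice, and 9.95 and 16.8 CPM in the S.C. mice. The 3 groups overlapped. The log2 fold changes were -0.57 ± 0.69, 0.37 ± 0.60 and 0.95 ± 0.74 for I.P. against DMSO, S.C. against DMSO and S.C. against I.P., each with an adjusted P of 0.810 or more in edgeR.

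Slc7a2, a carrier of cationic amino acids (chr8:40862396-40922308, plus strand), measured 19.5 and 12 CPM in the DMSO mice, 17.7, 10.8, 27.9 and 33.3 CPM in the I.P. mice, and 13.8 and 26.9 CPM in the S.C. mice. The groups overlapped, and the log2 fold changes were 0.50 ± 0.46, 0.35 ± 0.56 and -0.14 ± 0.52. Ass1, the argininosuccinate synthase that starts the rebuilding of arginine from citrulline (chr2:31470207-31520672, plus strand), was read 25 times in DMSO mouse 2, 18 and 12 times in I.P. mice 3 and 4, and 154 times in S.C. mouse 1. It had 0 counts in the other 4 libraries, 1 of DMSO, 2 of I.P. and 1 of S.C. mice. Its level thus came from single libraries, up to 10.4 CPM in S.C. mouse 1, and its log2 fold change of 2.79 ± 2.62 for S.C. against DMSO turned negative without that mouse, when the S.C. group was at 0 counts. Without S.C. mouse 2 it met the criterion against DMSO (3.72) and against I.P. (4.55 on the log2 scale), as a value of 1 S.C. mouse, in fits where 27.8% and 16.4% of all genes met it.

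**Figure D2:**
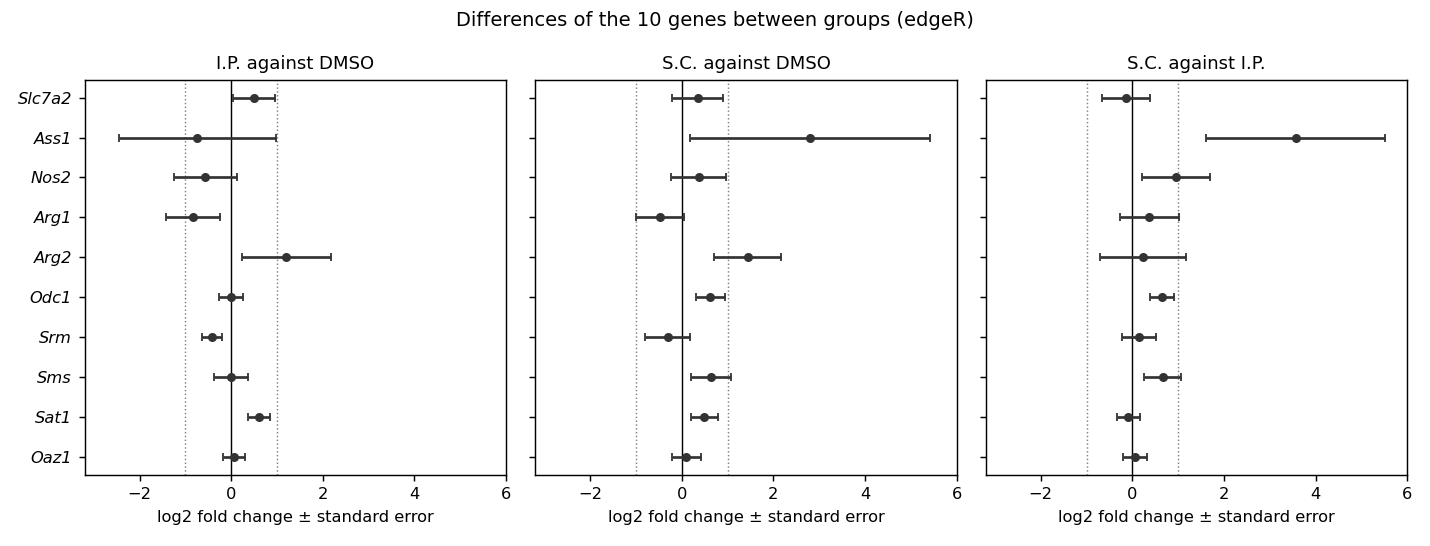
Log2 fold change of the 10 genes (x axis, point, with the standard error of the edgeR fit as a bar) in each of the 3 comparisons (panels). Dotted lines mark a 2-fold difference. Sat1 at 0.60 for I.P. against DMSO and Odc1 at 0.65 for S.C. against I.P. are the values with an unadjusted P below 0.05, and both lie inside the dotted lines.

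Within each library, the transcript of Arg1 was compared with that of Nos2, and the transcript of Odc1 with that of Sat1, as ratios. These ratios describe RNA levels, and the activity of the enzymes or the flow through the routes was not measured in these libraries. The log2 ratio of Arg1 to Nos2 was 6.07 ± 1.09 (SD, n = 2) with DMSO, 5.85 ± 0.56 (n = 4) with I.P. and 5.13 ± 0.39 (n = 2) with S.C. thiostrepton. Arg1 thus exceeded Nos2 in every mouse, from 4.85 in S.C. mouse 1 to 6.84 in DMSO mouse 2. The differences were -0.21 for I.P. against DMSO (exact permutation test, two-sided, P = 0.933), -0.94 for S.C. against DMSO (exact permutation P = 0.667) and -0.73 for S.C. against I.P. (exact permutation P = 0.267). The first changed sign with the DMSO mouse left out, from -0.98 without DMSO mouse 1 to 0.56 without DMSO mouse 2.

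The log2 ratio of Odc1 to Sat1 was -2.43 ± 0.34 (SD, n = 2) with DMSO, -3.03 ± 0.40 (n = 4) with I.P. and -2.28 ± 0.30 (n = 2) with S.C. thiostrepton. All 4 I.P. mice, between -3.42 and -2.64, lay below both S.C. mice at -2.06 and -2.50, and 3 of them below both DMSO mice at -2.67 and -2.18. The difference of S.C. from I.P. was 0.75 (exact permutation test, two-sided, P = 0.133, the smallest that 4 against 2 mice allow). It was -0.60 for I.P. against DMSO (exact permutation P = 0.267) and 0.14 for S.C. against DMSO (exact permutation P = 0.667, where 2 against 2 mice cannot go below 0.333). Adjusted over the 6 ratio comparisons by the Benjamini-Hochberg method, the exact permutation values were 0.533 to 0.933. No comparison could pass 0.05 at these group sizes.

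**Figure D3:**
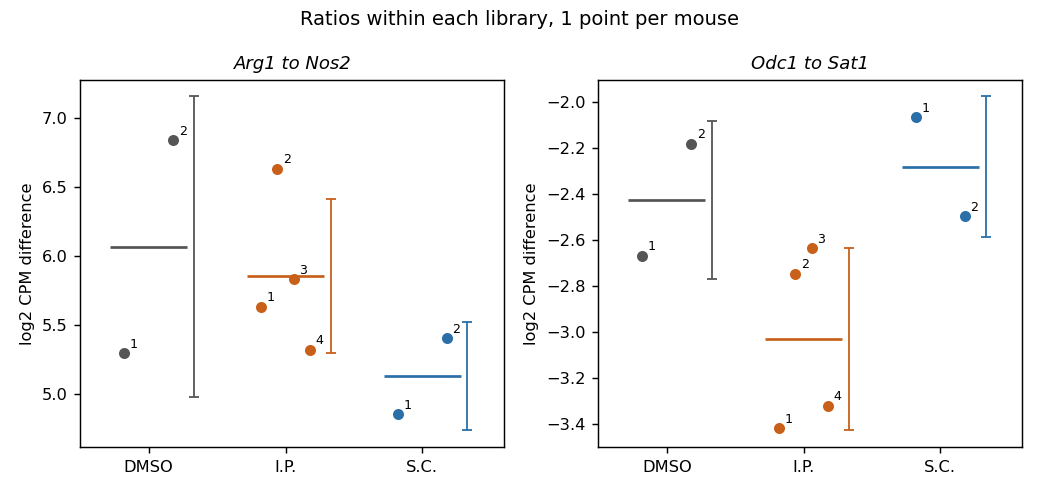
Log2 ratio of Arg1 to Nos2 (left) and of Odc1 to Sat1 (right) within each library (y axis, difference of log2 CPM with a prior count of 2) by group (x axis). Points are mice with their replicate number, horizontal lines group means and error bars the SD. The Arg1 to Nos2 ratios overlap between I.P. and DMSO mice, while the 4 I.P. mice lie below both S.C. mice for Odc1 to Sat1.

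The rest of the pathways was read from 56 further genes of arginine transport, the urea and creatine routes, nitric oxide synthesis, polyamine metabolism and ornithine use. For I.P. against DMSO, 46 of them could be tested, of which 2 were called higher and 0 lower. Slc6a8, the creatine carrier, rose by 1.48 ± 0.57 on the log2 scale (adjusted P = 0.980, edgeR). It measured 13.6 and 23.9 CPM in the DMSO mice and 108, 38.7, 34.3 and 29.6 CPM in the I.P. mice. Every I.P. mouse exceeded both DMSO mice, and without I.P. mouse 1 the log2 fold change was 0.86, short of 2-fold. It also fell short of the criterion without DMSO mouse 1, at 1.13 with an unadjusted P above 0.05. Slc25a29, a mitochondrial carrier of basic amino acids, was called at 2.53 ± 1.07 (adjusted P = 0.980, edgeR) on 4 and 13 counts with DMSO and 77, 16, 13 and 94 with I.P. thiostrepton. That call was lost without any one of DMSO mouse 1, DMSO mouse 2, I.P. mouse 1 or I.P. mouse 4 (2.001, 3.44, 2.199 and 2.06 on the log2 scale, with an unadjusted P above 0.05).

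For S.C. against DMSO, 44 of the 56 genes were tested, with 0 called higher and 1 lower. This was Amd1, the S-adenosylmethionine decarboxylase that supplies the aminopropyl groups for Srm and Sms, which fell by 1.04 on the log2 scale (SE 0.38, adjusted P = 0.848, edgeR). It measured 35.4 and 36.7 CPM with DMSO, 24.6 to 38.5 CPM with I.P. and 17.0 and 18.6 CPM with S.C. thiostrepton, so both S.C. mice lay below the other 6 while their Odc1 levels lay above them. Amd2, a near-identical copy, was listed at 168 counts in DMSO mouse 2, 49 in I.P. mouse 1 and 0 elsewhere, and with the 2 rows summed the log2 fold change was -1.23 and the call held. Without either DMSO mouse Amd1 was no longer called, and without S.C. mouse 1 the log2 fold change of -0.98 was just short of 2-fold.

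For S.C. against I.P., 45 of the 56 genes were tested, with 0 called higher and 3 lower. Eif5a2, a relative of the translation factor that carries the spermidine-derived residue hypusine, was lower by 2.93 on the log2 scale (log2 fold change -2.93 ± 0.998, adjusted P = 0.464, edgeR), at 6.83 to 13.5 CPM with I.P. against 2.49 and 0.15 CPM with S.C. thiostrepton, the last on 2 counts. Its call was lost with I.P. mice 1 and 2 alone, and its adjusted P = 0.0447 in DESeq2 passed 0.05. Its abundant relative Eif5a measured 879 to 1492 CPM and differed by 0.31. Slc25a15, the mitochondrial ornithine carrier, fell to 9.22 and 3.64 CPM with S.C. from 12.5 to 17.8 CPM with I.P. thiostrepton (log2 fold change -1.26 ± 0.51, adjusted P = 0.545, edgeR). It was no longer called without any one of I.P. mice 2, 3 and 4 or S.C. mouse 2 (-0.75 without the last). Slc25a29 (-2.96 ± 1.25, adjusted P = 0.569, edgeR) was read 7 and 4 times with S.C. thiostrepton and lost its call without I.P. mouse 1, I.P. mouse 4 or either S.C. mouse.

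Over these 56 genes the called share was 4.35%, 2.27% and 6.67% of those tested, beside 2.0%, 5.06% and 7.05% of all genes. No adjusted P of theirs in edgeR's quasi-likelihood test was below 0.05. An unadjusted P below 0.05 was found for 4 of 46, 1 of 44 and 8 of 45, beside 3.43%, 5.41% and 8.59% of all genes. The median log2 fold change of these pathway genes was 0.09, -0.01 and -0.12. By list, no nitric oxide gene (9 tested) and no ornithine-to-proline gene (6 tested) was called in any comparison, among them Gch1, which starts the synthesis of the cofactor of nitric oxide synthase, at 48.6 to 99.8 CPM, and Oat, the ornithine aminotransferase, at 152 to 229 CPM. Of the urea cycle genes, Otc, Cps1 and Nags were at or near 0 in every library, whereas Asl, which completes the rebuilding of arginine, was at 39.1 to 75.45 CPM. Of the polyamine oxidases, Smox (70.5 to 160 CPM) had no unadjusted P below 0.05. Paox, which oxidises acetylated polyamines, was at 156 and 104 CPM in the DMSO mice and 125 and 96.2 CPM in the S.C. mice. In the I.P. mice it was at 159 to 188 CPM, above all mice of both other groups. Of all genes, 18.5% did not overlap between S.C. and I.P. mice and 14.1% between I.P. and DMSO mice. The log2 fold change of Paox for S.C. against I.P., -0.66 ± 0.25, had an unadjusted P below 0.05 in edgeR and stayed under 2-fold. No difference of Paox from DMSO had such a P.

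**Figure D4:**
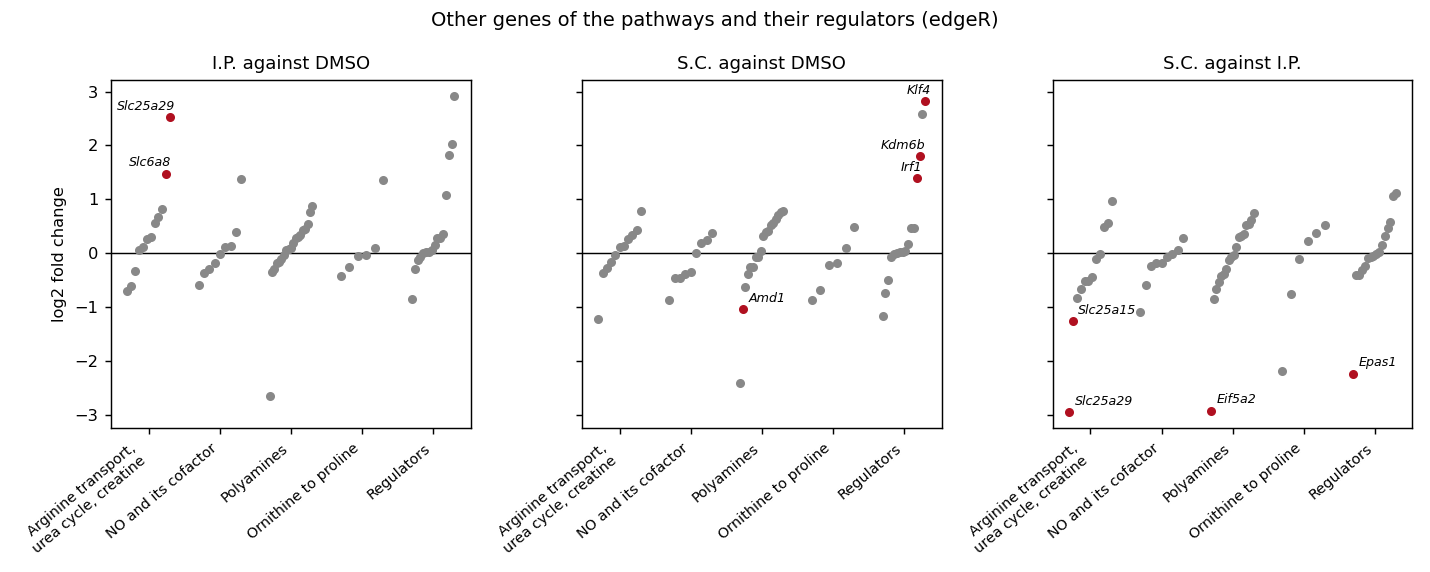
Log2 fold change (y axis) of the other pathway genes and of regulators that passed the filter on low counts, by list (x axis) and comparison (panels), each point 1 gene, sorted by value within its list. Red points with names met the criterion of an unadjusted P below 0.05 and at least a 2-fold difference, and grey points did not. Called are 2 genes as higher with I.P. thiostrepton, 3 regulators as higher and Amd1 as lower with S.C. thiostrepton, and 4 genes as lower with S.C. than with I.P. thiostrepton.

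Of 16 regulators known to act on Arg1, Nos2 or Odc1, 0 were called in I.P. against DMSO, 3 (18.8%) were called higher in S.C. against DMSO and 1 (6.25%) lower in S.C. against I.P., beside 2.0%, 5.06% and 7.05% of all genes in either direction. Klf4, a transcription factor of alternatively activated macrophages, rose by 2.82 ± 0.55 on the log2 scale with S.C. thiostrepton (adjusted P = 0.747, edgeR quasi-likelihood test). It passed adjustment in edgeR's likelihood ratio test (adjusted P = 0.00528) and in DESeq2 (adjusted P = 0.00162), so that the call after adjustment depends on the test. It measured 3.93 and 6.72 CPM with DMSO and 49.4 and 27.7 CPM with S.C. thiostrepton. In the I.P. group it was 149 CPM in mouse 1 and 4.06 to 7.88 CPM in the other 3, the same mouse that had the highest Arg2. Kdm6b, a histone demethylase of repressive marks, rose by 1.80 ± 0.59 on the log2 scale (adjusted P = 0.812, edgeR), at 4.75 and 3.85 CPM with DMSO and 12.4 and 17.98 CPM with S.C. thiostrepton. It too was highest in I.P. mouse 1, at 44.3 CPM, and its call was lost without DMSO mouse 1 or DMSO mouse 2.

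Irf1, an interferon-induced factor that acts on Nos2, was called higher with S.C. thiostrepton, at a log2 fold change of 1.39 ± 0.52 (adjusted P = 0.887, edgeR), from 86.2 and 59.2 CPM to 110 and 277 CPM, and spanned 35.3 to 152 CPM in the I.P. mice. Its call was lost without S.C. mouse 2, at 0.53, and without DMSO mouse 2. In the fit of all 3 groups together, Klf4, Kdm6b and Irf1 all lost the call. Epas1, a hypoxia-inducible factor, was at 1.35 and 1.16 CPM with S.C. and at 3.67 to 9.75 CPM with I.P. thiostrepton, a log2 fold change of -2.24 ± 0.74 (adjusted P = 0.453, edgeR). The Epas1 call was lost with the replicate block and with I.P. mice 1 and 2 alone. Stat6, Stat3, Hif1a, Pparg and Myc did not meet the criterion in any comparison, with Stat6, the IL-4 signal transducer, at 144 to 336 CPM.

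The genes whose log2 CPM ran most closely with Arg1 over the 8 mice, out of 9327 genes averaging 5 CPM or more, were Kctd12 (Pearson r = 0.95), Senp8 (0.91), Trim12c (0.88), Prdx4 (0.88) and Naaa (0.87). These coefficients are a description of 8 libraries that share a sort and a preparation, chosen as the highest of 9327. Naaa, a lysosomal enzyme that hydrolyses acylethanolamines, was at 132 and 131 CPM with DMSO, 67.3, 38.1, 165 and 45.2 CPM with I.P. and 86.8 and 83.6 CPM with S.C. thiostrepton, with I.P. mouse 3 again the highest of its group. Prdx4, a peroxiredoxin of the endoplasmic reticulum, varied less, between 84.1 and 143 CPM.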

How the data were processed

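RNA was extracted from sorted TAMs (RNeasy Micro) and made into libraries with the KAPA mRNA HyperPrep kit. The authors deposited 1 table of raw read counts per gene for the 8 libraries. The study's methods name mm10, bowtie2 2.2.3 and RSEM 1.2.15, whereas the submitters' processing notes list TopHat2, edgeR and mm10. The deposited counts were whole numbers, and whether counting used strand is not given in the sources used here. Groups came from the sample labels. Nothing states that replicate numbers mark a shared day. The deviations of same-numbered mice cannot decide it, because in a group of 2 mice they mirror each other.

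From the counts, genes were filtered with filterByExpr (minimum count 10, minimum total 15), scaled by TMM and tested pairwise with edgeR 4.0.16 (quasi-likelihood, R 4.3.3), with Benjamini-Hochberg adjustment over all genes tested. The criterion was that of the study, an unadjusted P below 0.05 and at least 2-fold. The standard error is the absolute log2 fold change divided by the square root of F. CPM values are TMM-scaled over the 8 libraries. The precision is set by 2 to 4 mice per group. The edgeR p-values set each difference against the spread between these mice, with estimates of spread that borrow from all genes tested. Alternatives were RLE scaling, library size alone, no filter, the likelihood ratio test, DESeq2 1.42.0, a fit of all groups, a replicate block and leaving out each mouse. The scripts were tested on simulated counts with 200 changed genes.

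The 10 genes, the wider lists and the markers were chosen with earlier results of these data known. Named are all 10 genes, up to 4 called genes per wider list and comparison by smallest P, and the 5 genes nearest to Arg1; other genes named for their levels were picked after their values were seen. Coordinates are from GENCODE vM21 (GRCm38), in which 10 of 10 symbols matched, and promoter bases from RefSeq, which held 5 of 10.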

Additional observations from a re-analysis of the deposited data

Results flagged for a closer look

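Arg2 in the I.P. mice was flagged because 1 library stood apart. I.P. mouse 1 measured 25.3 CPM and the other 3 between 2.31 and 4.38 CPM, and the gap between the highest and the next mouse was 0.910 of the whole range of the group, above Dixon's 95% limit for 4 samples. Of 19 I.P. groups examined this way (the 10 genes, the marker sums and the ratios), it was the 1 flagged, and chance alone flags about 1 in 20. The same mouse had the highest macrophage marker sum (58301 CPM, of which Apoe 38151 CPM), Klf4 (149 CPM) and Kdm6b (44.3 CPM) of the series.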

How the results depend on the processing

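RLE scaling, library size alone, no filter, the likelihood ratio test, DESeq2, a fit of all groups and summed near copies each left 0 of the 10 genes called in every comparison. Same-numbered mice had correlations of deviations from -0.187 to 0.169. In a group of 2 mice the deviations mirror each other, so these values cannot decide whether replicate numbers mark a shared day. The fit with the replicate block called 1 of 10 for I.P. against DMSO (Arg1). So did I.P. mice 1 and 2 alone, an alternative chosen after seeing the data. Among the wider genes, the replicate block called 1 for I.P. and 0 for S.C. against DMSO, and 0 with the pairing crossed. Library size alone called 1 and the fit of all groups 1 for I.P., no filter 2 and the fit of all groups 3 for S.C. against DMSO, and I.P. mice 1 and 2 alone 0 for S.C. against I.P. In these fits the share of all genes called was 1.29% to 2.65% for I.P. against DMSO and 3.67% to 7.04% for S.C. against DMSO. It was 3.37% for S.C. against I.P. with I.P. mice 1 and 2 alone. The causes of these changes in calls were not tested.

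Directions turned as follows. With library size alone, Oaz1 was -0.012, -0.049 and -0.037 in the 3 comparisons. With the replicate block, Slc7a2 was -0.16 for I.P. against DMSO, and for S.C. against I.P. Slc7a2 was 0.46, Srm -0.13 and Oaz1 -0.080. With I.P. mice 1 and 2 alone, Slc7a2 was -0.16 for I.P. against DMSO, and for S.C. against I.P. Slc7a2 was 0.51, Arg2 -0.40 and Oaz1 -0.064.

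Leaving out 1 mouse at a time gave, for I.P. against DMSO, 0 to 1 of the 10 genes and 0 to 4 wider genes called, and log2 fold changes of -1.72 to 5.84 for Ass1, -0.15 to 1.80 for Arg2, -0.20 to 0.22 for Odc1, -0.30 to 0.36 for Sms and -0.025 to 0.17 for Oaz1. The Arg1 to Nos2 ratio ran from -0.98 to 0.56. For S.C. against DMSO it gave 0 to 2 and 0 to 11 calls, the highest from fits with 1 S.C. mouse, in which 24.5% and 27.8% of all genes were called, with -0.25 to 0.75 for Slc7a2, -6.52 to 9.21 for Ass1, -0.093 to 0.81 for Nos2, -1.31 to 0.026 for Arg1, -1.14 to 0.18 for Srm and -0.15 to 0.28 for Oaz1. For S.C. against I.P. it gave 0 to 1 and 1 to 7 calls, with -0.70 to 0.26 for Slc7a2, -5.83 to 4.55 for Ass1, -0.43 to 1.04 for Arg1, -0.20 to 1.61 for Arg2, -0.70 to 0.66 for Srm, -0.22 to 0.037 for Sat1 and -0.19 to 0.27 for Oaz1. With an I.P. mouse left out, 1.54% to 2.996% of all genes were called for I.P. against DMSO and 5.23% to 7.69% for S.C. against I.P. The share of all genes was no larger in the I.P. against DMSO fits left with 1 DMSO mouse. It was larger in the S.C. against I.P. fits left with 1 S.C. mouse. Where a group was left with 1 mouse, that group was assumed to vary like the others. Sat1 and Odc1 stayed under 2-fold in each comparison under every alternative run. Ass1, Arg2 and Nos2 rest on few counts, and the fitted values of Ass1 against a group at 0 counts (5.84 and 9.21 without DMSO mouse 2, -6.52 and -5.83 without S.C. mouse 1) depend on the prior count and are no measure of size.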
